A study of Homo sapiens with 3 samples.

Results

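Gene expression in HepG2 cells exposed to graphene oxide (GO) was compared with that in untreated HepG2 cells, as the log2 value of each gene on the GO array minus its log2 value on the untreated array. HepG2 is an established human liver tumour line. The comparison used 2 of the 3 arrays of the series: 1 of cells with no treatment and 1 of cells given GO for 24 h at its EC20, the dose that viability assays tied to a 20% effect. Both cultures were kept in MEM medium, and the labels give the dose as an EC20 without its concentration. Total RNA was turned into biotin-labelled cDNA and hybridised to Affymetrix arrays. The array of cells exposed to reduced graphene oxide took part only in choosing a probe set for each gene and in the level filter, through the mean over the 3 arrays. Probe sets with exactly 1 gene symbol gave 18417 genes, each represented by its probe set with the highest mean, and 11050 of them reached the 40th percentile of that mean (log2 6.66), the level filter. Each group had 1 array, so no difference has an error and no test was possible. Genes are described by a size of 2-fold, a log2 difference of 1 or more, and by smaller and larger sizes beside it.

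Graphene oxide is a sheet of carbon atoms that carries oxygen groups, and cells in culture can bind such sheets at the membrane or take them up. HepG2 cells keep many traits of hepatocytes: they secrete plasma proteins, conjugate foreign compounds, store metals in metallothioneins and answer to BMP signals with hepcidin, the hormone that limits iron uptake. They also divide quickly, so genes of mitosis and ribosome production are active in them. In bulk RNA of this kind, fewer cells that express a gene and less RNA per cell cannot be told apart.

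The arrays carried the signature of liver-derived cells. All 14 measured hepatocyte and HepG2 markers passed the filter, with a median of 12.7 in the untreated array and 12.6 in the GO array. Albumin (ALB) stood at 13.5 in both arrays, and GPC3, a surface proteoglycan of liver tumours, at 13.05 and 13.06. Among these markers the fibrinogen gene FGB was 0.85 lower with GO and TTR, which encodes transthyretin, was 0.70 higher. Of 9 measured leukocyte markers only CD68 and LYZ passed the filter, and PTPRC, the pan-leukocyte CD45 gene, stood at 3.65 and 3.56, far under the filter level. The summed leukocyte marker signal on the linear scale was 10694 untreated and 12357 with GO, most of it from LYZ, and its part in the results was not tested. Of 10 fibroblast, stellate and endothelial markers 2 passed the filter, with sums of 669 and 660, and of 7 neural markers 1 did, with sums of 477 and 462. The 8 cholangiocyte and gut markers, 6 of them past the filter, summed to 6236 and 5974.

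Most genes differed little between the arrays, and the larger differences lay mainly on the lower side. The levels of genes past the filter correlated with Pearson's r of 0.973 across genes, which are not independent replicates. Of the 11050 genes, 43.1% differed by less than 1.1-fold and 77.1% by less than 1.25-fold. The median difference was 0.01, with 5643 genes above 0 and 5400 below. The tails were unequal: the lowest 1% of differences lay under -0.97 and the highest 1% over 0.70. At 1.5-fold, 211 genes were higher with GO (1.91%) and 467 lower (4.23%). At 2-fold, 28 were higher (0.253%) and 101 lower (0.914%). At 3-fold, 1 gene was higher and 8 were lower, and at 4-fold 0 were higher and 5 lower. Lower genes thus made up 68.9% of those past 1.5-fold, 78.3% past 2-fold and 88.9% past 3-fold. All 129 genes past 2-fold were protein-coding, as were 10553 of the 11050 genes past the filter. The roles used below were given to these genes after their values were seen, so they sort the called genes only and say nothing of the share of a role's measured genes that differed.

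**Figure D1:**
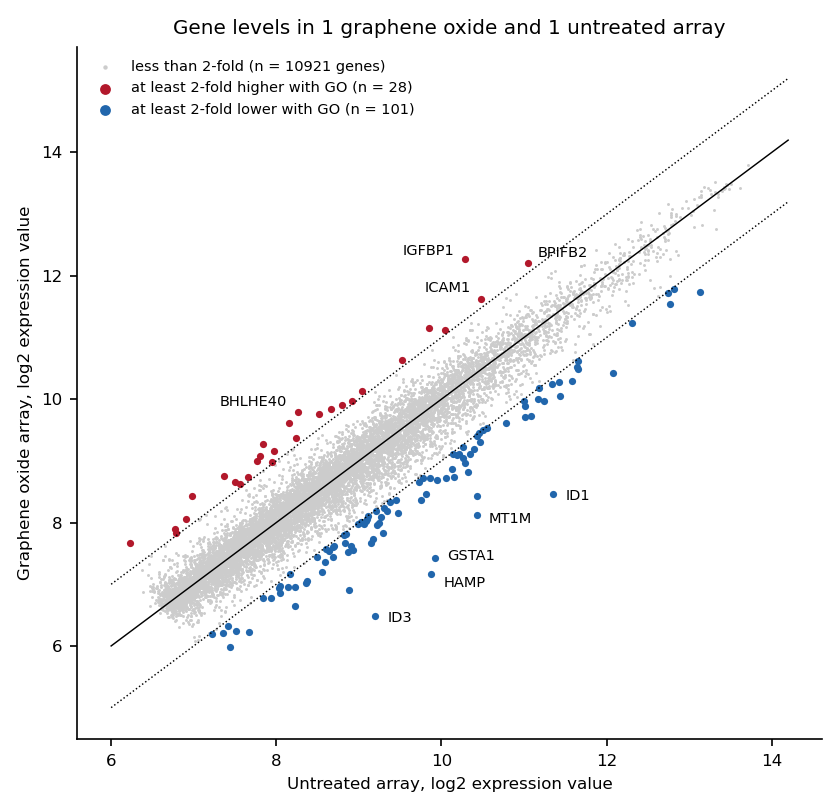
Log2 value of each of the 11050 genes past the level filter on the untreated array (x axis) and on the graphene oxide array (y axis). The solid line marks equal values and the dotted lines 2-fold. The 101 genes under the lower dotted line (blue) outnumber the 28 above the upper one (red), and ID1, HAMP, ID3, GSTA1 and MT1M lie farthest below.

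The threshold fell in a dense stretch of genes. On the higher side TNS4 (1.03), PFKFB4 (1.04) and CLDN6 (1.05) stood just inside 2-fold, and CDH1 (0.996), PLAC8 (0.99) and ARID5B (0.98) just outside. On the lower side POLR3G (-1.001), NDUFAF4 (-1.004) and PSMA2 (-1.004) were just inside, and RFC4 (-0.997), CCDC66 (-0.99) and ZNF114 (-0.99) just outside. In 8 of the 129 genes, all on the lower side, the GO value lay under the filter level of 6.66, and in 1, AGR2, the untreated value did. Background signal can flatten differences there. Only 3 of the 129 genes had another probe set past the filter with values unlike those of the first. For TMA7 it gave -1.19 beside -1.10, for RPL34 -0.46 beside -1.02 and for AKR1C1 -0.05 beside -1.03. These 3 pairs shared a sign, and in 1 the other value was past 1.5-fold as well. Probe sets under the filter were left out of the pairs. With all probe sets averaged, YAE1 moved from -1.23 to -0.53, SNRPG from -1.17 to -0.84 and ZC3H15 from -1.16 to -1.03. The signs of their other probe sets were not compared.

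The genes farthest below the untreated array, ID1, HAMP and ID3, are targets of BMP signals. BMP ligands of the TGF-beta family act through SMAD proteins, which in hepatocytes switch on the ID genes, whose products block the DNA binding of other helix-loop-helix factors, the hepcidin gene HAMP and the feedback inhibitor SMAD7. ID1 stood at 11.35 untreated and 8.46 with GO, a difference of -2.88. HAMP went from 9.87 to 7.16 (-2.71) and ID3 from 9.19 to 6.49 (-2.70), the latter ending under the filter level. ID2 stood at 11.44 and 10.06 (-1.38) and SMAD7 at 7.84 and 6.78 (-1.06). These 5 genes spanned -2.88 to -1.06 with a median of -2.70. They were put together after their values were seen, and BMP targets short of 2-fold were not counted. GSTA1 (-2.49) and MT1M (-2.30), of other roles, lay below ID2 and SMAD7.

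The 250 bases before the RefSeq start of ID1 (GRCh38.p14, chr20:31605039-31605288, plus strand) and of HAMP (chr19:35282278-35282527, plus strand) are shown because these genes were farthest below the untreated array. Capitals mark TATAAA and its reverse complement TTTATA in ID1, which overlap, and GGCGCC, a GC-rich element that SMAD proteins of the BMP branch can bind, in HAMP.
ID1: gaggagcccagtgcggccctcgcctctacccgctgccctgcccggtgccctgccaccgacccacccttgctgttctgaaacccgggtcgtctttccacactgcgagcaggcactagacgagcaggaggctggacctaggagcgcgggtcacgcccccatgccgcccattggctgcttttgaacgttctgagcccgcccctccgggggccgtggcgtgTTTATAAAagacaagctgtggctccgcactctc
HAMP: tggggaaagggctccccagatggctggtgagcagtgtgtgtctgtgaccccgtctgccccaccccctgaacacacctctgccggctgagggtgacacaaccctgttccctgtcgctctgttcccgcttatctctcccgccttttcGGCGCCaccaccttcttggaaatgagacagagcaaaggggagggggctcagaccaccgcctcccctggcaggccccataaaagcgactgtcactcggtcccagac
The TATAAA of ID1 lay 31 to 26 bases before the start and the GGCGCC of HAMP 105 to 100 bases before it. No GGCGCC occurred in the 250 bases of ID1, ID2, ID3 or SMAD7, and 26.3% of all promoters held it. A match is a description of letters and not a bound site.

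Enzymes that handle foreign compounds, retinoids and steroids formed another role among the lower genes, with 10 members between -2.49 and -1.03. GSTA1, a glutathione transferase abundant in liver, stood at 9.92 untreated and 7.43 with GO (-2.49). Its relative GSTA2 went from 7.67 to 6.23 (-1.44), under the filter level. The aldo-keto reductase AKR1B10, which reduces retinal and other aldehydes, went from 10.43 to 8.44 (-1.99). The AKR1C genes, whose products reduce steroids, stood at -1.65 for AKR1C2, -1.04 for AKR1C3 and -1.03 for AKR1C1. ALDH1A1, which makes retinoic acid, went from 11.65 to 10.52 (-1.13), and CYP24A1, which inactivates vitamin D, from 8.69 to 7.60 (-1.10). PON3, a lactonase, was at -1.33 and SULT1E1, which sulphates oestrogens, at -1.15. GSTA and AKR1C genes are near-identical copies, so signal can be shared between their probe sets.

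The promoter of GSTA1 (GRCh38.p14, chr6:52803817-52804066, minus strand) is shown beside that of ICAM1 (chr19:10270870-10271119, plus strand), an adhesion receptor on the higher side. Both hold TATAAA, in capitals, 30 to 25 bases before the start, in genes that differed in opposite directions.
GSTA1: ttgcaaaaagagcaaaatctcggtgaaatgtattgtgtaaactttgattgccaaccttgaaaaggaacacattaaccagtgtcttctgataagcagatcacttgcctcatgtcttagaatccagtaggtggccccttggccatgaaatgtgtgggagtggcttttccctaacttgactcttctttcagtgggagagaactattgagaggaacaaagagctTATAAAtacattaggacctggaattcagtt
ICAM1: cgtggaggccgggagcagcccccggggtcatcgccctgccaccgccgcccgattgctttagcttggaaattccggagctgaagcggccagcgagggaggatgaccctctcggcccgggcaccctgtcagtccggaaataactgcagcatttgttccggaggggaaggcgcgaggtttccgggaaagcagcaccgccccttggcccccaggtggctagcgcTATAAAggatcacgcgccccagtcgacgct
The GC content of these stretches was 40.8% for GSTA1 and 66.0% for ICAM1.

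Metallothioneins, small proteins that bind zinc and copper, supplied 4 genes past 2-fold. MT1M went from 10.43 to 8.13 (-2.30) and MT1F from 13.13 to 11.73 (-1.40). MT1G was at -1.22 and MT1X at -1.03. All 11 genes past the filter whose symbols begin with MT and a digit were below 0, from -0.02 for MT3 to MT1M, with a median of -0.54. Their sequences are alike, so single members are uncertain.

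Metabolic genes of lipids, amino acids and bile acids numbered 7 on the lower side, with a median of -1.36. RIDA, which clears reactive imines, went from 9.29 to 7.82 (-1.46), and DGKK, a diacylglycerol kinase, from 10.15 to 8.74 (-1.42). PAQR8, a membrane progesterone receptor, stood at -1.39 and SLC51B, a subunit of the bile acid exporter, at -1.36. IDI1, an isomerase of the sterol pathway, was at -1.30, ETNPPL, which breaks down phosphoethanolamine, at -1.27 and GPAM, which starts glycerolipid synthesis, at -1.01.

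Genes of chromosome segregation, the centrosome and the cilium made up 13 of the 101 lower genes, with a median of -1.34. Kinetochores, the protein plates that tie chromosomes to spindle fibres, were represented by CENPQ (-1.58), ITGB3BP (-1.48), NUF2 (-1.43), CENPE (-1.34) and CENPK (-1.34). NUF2, a subunit of the NDC80 complex, stood at 9.17 untreated and 7.73 with GO. HAUS1 of the augmin complex, which branches spindle microtubules, went from 10.32 to 8.82 (-1.50). The kinesins KIF20B and KIF15 stood at -1.18 and -1.01, CDK1 at -1.09, and the centrosomal proteins LRRCC1 and CEP57 at -1.32 and -1.02. IFT74, part of the train that carries cargo along cilia, went from 7.44 to 5.99 (-1.45), under the filter level.

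Genes of protein folding and degradation numbered 10. PFDN4, a subunit of the prefoldin chaperone that hands new actin and tubulin chains to their folding machine, stood at 8.88 untreated and 6.91 with GO (-1.97), the largest difference of this role. The proteasome core genes PSMA3 (-1.20), PSMA4 (-1.18) and PSMA2 (-1.004) all encode subunits of its outer ring. Parts of the cullin ubiquitin ligase system were lower as well: the RING subunit RBX1 at -1.04, the substrate receptors KLHDC2 at -1.09 and CRBN at -1.07, and COPS2 of the COP9 signalosome, which recycles these ligases, at -1.14. COPS2 went from 11.42 to 10.28.

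Ribosome production and translation supplied 13 genes with a median of -1.10. MPHOSPH10, of the particle that cuts ribosomal RNA precursors, went from 9.81 to 8.46 (-1.34). RSL24D1 (-1.10), RIOK2 (-1.09), PAK1IP1 (-1.10), DNTTIP2 (-1.05) and ESF1 (-1.02) act in the assembly of ribosomal subunits, while RPL34 (-1.02, and -0.74 with its probe sets averaged) is itself a ribosomal protein gene. YAE1, which helps to mature a ribosome recycling factor, stood at -1.23 and at -0.53 when its probe sets were averaged. Transcription and RNA processing gave 8 genes. The spliceosomal genes LSM3, SNRPG and LSM5 stood at -1.36, -1.17 (-0.84 with its probe sets averaged) and -1.15, POLR2K, a subunit shared by all nuclear RNA polymerases, at -1.28, and the coactivator SUB1 at -1.28.

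Among 12 mitochondrial genes, NDUFB3 of respiratory complex I went from 8.36 to 7.01 (-1.34), SUCLA2 of the tricarboxylic acid cycle from 10.13 to 8.87 (-1.25) and COX7B of complex IV from 8.59 to 7.36 (-1.23). The mitochondrial ribosome genes MRPL1, MRPL47 and MRPL46 stood at -1.25, -1.21 and -1.01. COA6 and NDUFAF4, which help to assemble complexes IV and I, were at -1.06 and -1.004. Genes of DNA repair and recombination numbered 5, among them MND1 (-1.27), which helps homologous chromosomes to pair, XRCC4 (-1.19), of the joining of broken ends, POLB (-1.14), a repair polymerase, and SMC6 (-1.03). The zinc finger genes ZNF670, ZNF845, ZNF124 and ZNF600 spanned -1.36 to -1.03, and 10 genes of other roles, S100P (-1.27) the lowest and VRK1 (-1.02) the nearest to the threshold, completed the 101.

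On the higher side, secreted and matrix proteins held 7 of the 28 genes. IGFBP1, which binds insulin-like growth factors and is held down by insulin in liver, stood at 10.28 untreated and 12.27 with GO, a difference of 1.99 that was the highest of all. MATN3, a matrix protein of cartilage, went from 9.85 to 11.16 (1.30), and CEMIP, a protein of hyaluronan degradation, from 7.37 to 8.75 (1.38). FSTL3, an inhibitor of activins, was at 1.18, BPIFB2 at 1.16 and the liver chemokine CCL16 at 1.09. AGR2, a disulphide isomerase of secretory cells, went from 6.23 to 7.66 (1.44), starting under the filter level.

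Adhesion, junction and actin-linked proteins accounted for 8 of the higher genes, between 1.03 and 1.23. ICAM1, the receptor through which leukocytes hold on to cells, went from 10.48 to 11.63 (1.15). ITGA2, the collagen-binding integrin subunit, went from 10.05 to 11.12 (1.07) and L1CAM, a cell adhesion molecule of the immunoglobulin family, from 6.90 to 8.05 (1.15). The tight junction claudin CLDN6 stood at 1.05 and TNS4, which joins integrins at focal contacts, at 1.03. AKAP12, a scaffold at the cell cortex, was at 1.23, FILIP1L at 1.15 and the actin binder TAGLN2 at 1.07.

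Of the genes 2-fold higher, 0.253% of all, 3 act in glucose use, and glycolysis genes short of 2-fold were not counted. The transporter SLC2A3 went from 8.80 to 9.91 (1.11) and hexokinase HK2 from 9.04 to 10.13 (1.09). PFKFB4, which sets the level of an activator of glycolysis, went from 6.79 to 7.83 (1.04). Among regulators of transcription, BHLHE40, a repressor linked to hypoxia and the circadian clock, went from 8.26 to 9.79 (1.53), the immediate early factor EGR1 from 9.53 to 10.63 (1.10) and the Notch coactivator MAML2 from 7.98 to 9.17 (1.19). The other 7 genes, from MAB21L3 (1.11) to TMC7 (1.46), included DEPP1 (1.13), a target of FOXO factors, PIGZ (1.28), which adds a mannose to membrane anchors, and the amino acid transporter SLC43A2 (1.24).

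The promoter of BHLHE40 (GRCh38.p14, chr3:4979187-4979436, plus strand) is shown because it carries repeated copies of the short core that hypoxia-inducible factors read, ACGTG or GCGTG on either strand. Capitals mark its 4 matches.
BHLHE40: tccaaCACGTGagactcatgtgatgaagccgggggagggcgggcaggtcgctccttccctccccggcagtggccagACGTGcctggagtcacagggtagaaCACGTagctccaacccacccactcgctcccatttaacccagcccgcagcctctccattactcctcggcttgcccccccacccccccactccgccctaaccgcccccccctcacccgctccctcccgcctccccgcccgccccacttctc
The matches began 245, 244, 174 and 149 bases before the start, and the first pair formed a palindromic E-box, CACGTG. This core is common: 57.9% of the promoters of genes past the filter held at least 1 match, against 62.5% of the 24 higher genes and 53.0% of the 83 lower genes with a promoter entry. IGFBP1 and MT1M had no promoter entry.

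**Figure D2:**
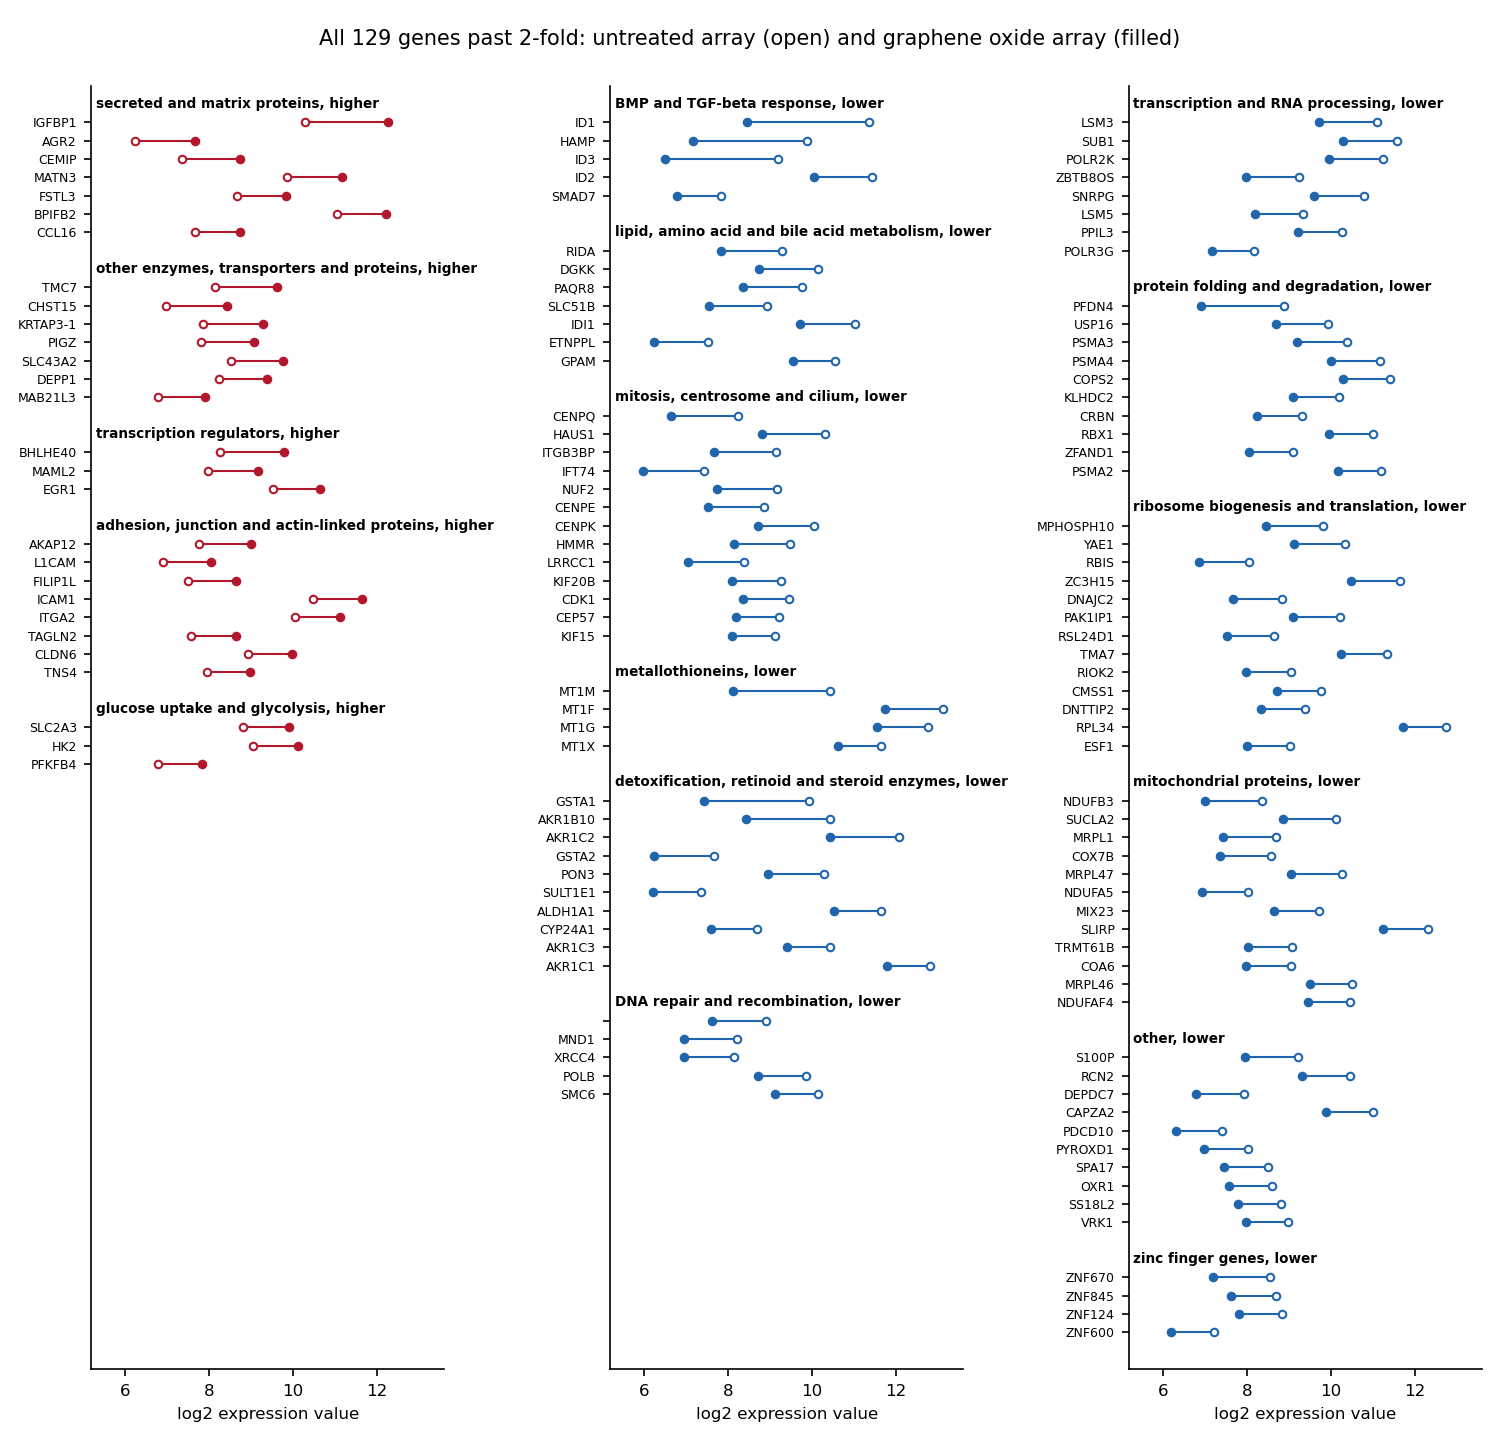
Log2 value of each of the 129 genes past 2-fold on the untreated array (open circles) and on the graphene oxide array (filled circles), grouped by role, with genes higher with GO in red and lower in blue and 1 lower gene left unnamed. The longest lines belong to ID1 (11.35 to 8.46), HAMP and ID3, and the middle and right columns hold the lower side alone.

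A set of 49 gene lists covered pathways and complexes of signalling, metabolism, trafficking, gene expression and cell architecture. Of 1157 distinct genes listed 1065 were measured and 990 passed the filter, which were 2-fold higher in 3 cases (0.303%) and 2-fold lower in 6 (0.606%), and 1.5-fold higher in 14 (1.41%) and lower in 45 (4.55%). Over all genes these shares were 0.253%, 0.914%, 1.91% and 4.23%. Their medians ranged from -0.33 to 0.21, with 32 above 0 and 17 below, while the median of all genes was 0.01. In 33 lists the median lay within 0.1 of 0, and in 13 the median and the mean differed in sign.

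The lowest median, -0.33, belonged to cohesin, the ring that holds sister chromatids together and shapes chromatin loops. Of its 15 members past the filter, 4 were above 0 and 11 below, and 4 were at least 1.5-fold lower, as were 4.23% of all genes. The ring subunit SMC3 stood at 9.87 untreated and 9.25 with GO (-0.62), its partner STAG2 at 9.44 and 8.81 (-0.63), and the acetyltransferases ESCO2 and ESCO1, which lock the ring, at -0.61 and -0.59. The other ring subunits SMC1A and RAD21 stood at 0.26 and -0.06, and no member was 2-fold lower, where 0.914% of all genes were.

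The median of nuclear pore genes was -0.16, with 9 of 26 above 0 and 17 below. NUP88 and TPR, which lie on opposite faces of the pore, were both at -0.59, NUP54 of the central channel at -0.43 and RANBP2 of the cytoplasmic filaments at -0.40. The import and export receptors that pass through the pore had a median of -0.01, with 12 of 28 above 0, and the exportin XPO1 stood at -0.35. In the lamina and envelope list LMNA, which encodes lamins A and C, was higher at 0.60, from 9.11 to 9.71, while LBR, the lamin B receptor, stood at -0.28 and TMPO at -0.42.

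Respiratory chain assembly factors had a median of -0.16, with 21 of 29 below 0. NDUFAF4 was the 1 member past 2-fold, where 0.914% of all genes were 2-fold lower. TMEM126B went from 7.33 to 6.48 (-0.85) and NDUFAF7 from 9.20 to 8.40 (-0.81), both of complex I like NDUFAF4. COX14 of complex IV stood at 0.38. For mitochondrial protein import the median over 24 genes was -0.05 and the mean -0.14, and it held 3 members at least 1.5-fold lower (4.23% of all genes were): the small chaperones TIMM8A (-0.86) and TIMM8B (-0.78) and PMPCB (-0.83), of the peptidase that cuts off targeting signals. For iron-sulphur cluster assembly the median was -0.10, with 14 of 20 below 0 and CIAO2A, of the cytosolic branch, at -0.86. In the tricarboxylic acid cycle list the median was 0.01 and SUCLA2 the 1 member past 2-fold, beside 0.914% lower among all genes. SUCLG1, the other part of its enzyme, stood at -0.46 and OGDH at 0.30.

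Serine, folate and methionine metabolism had a median of -0.18, with 11 of 16 below 0. MAT1A, the liver enzyme that makes the methyl donor S-adenosylmethionine, went from 9.73 to 9.12 (-0.61), ALDH1L1 of the folate cycle from 7.61 to 7.005 (-0.61) and BHMT, which remakes methionine from betaine, from 8.14 to 7.61 (-0.53). MTR, the vitamin B12-dependent enzyme for the same product, stood at 0.41. Selenoproteins and their synthesis had a median of -0.13, with 15 of 20 below 0. DIO1, the liver deiodinase that activates thyroid hormone, went from 10.50 to 9.61 (-0.89), and SELENOK of the endoplasmic reticulum stood at -0.66. Purine and pyrimidine synthesis had a median of -0.08, with UMPS at -0.39 and PPAT at -0.37, and CAD, which starts the pyrimidine pathway, at 0.35.

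Cullin ligases and the COP9 signalosome gave a median of -0.10 but a mean of -0.22, with 19 of 27 below 0. COPS2 and RBX1 were the 2 members past 2-fold, where 0.914% of all genes were 2-fold lower. COPS4 went from 9.30 to 8.35 (-0.95) and the scaffold CUL5 from 8.51 to 7.90 (-0.62). Ubiquitin-conjugating enzymes split evenly, 10 above 0 and 10 below, with UBE2T, of DNA crosslink repair, at -0.56 and UBE2H at 0.48. Retromer and sorting nexins, which return receptors from endosomes, were below 0 in 18 of 23 cases (median -0.12, mean -0.21). SNX4 went from 8.79 to 7.82 (-0.97), SNX2 from 10.79 to 9.95 (-0.83) and VPS29 of the retromer core was at -0.58. Elsewhere in trafficking, CHMP5 of the ESCRT machinery stood at -0.82 in a list with a median of 0.08, and the fusion proteins VAMP7 and VAMP8 at -0.69 and -0.56 in a list with a median of 0.03.

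Lists of transcription and chromatin complexes held low members while their medians lay between -0.04 and 0.12. Of 12 RNA polymerase II subunits 6 were above 0 and 6 below (median 0.06, mean -0.13), with POLR2K at -1.28, POLR2H at -0.73 and POLR2B, which helps to form the active site cleft, at -0.53. Mediator, which links activators to the polymerase, had a median of 0.07 over 27 genes, with MED31 at -0.93, MED21 at -0.80 and MED7 at -0.59. In the list of mRNA decay the exosome subunits EXOSC8 and EXOSC9 stood at -0.73 and -0.68. Among histone acetylases and deacetylases HAT1, which acetylates new histones, went from 10.46 to 9.59 (-0.87) and HDAC2 from 10.12 to 9.46 (-0.67), while HDAC11 went from 7.26 to 8.10 (0.84). SWI/SNF remodellers, which slide nucleosomes, were above 0 in 16 of 18 cases (median 0.12, mean 0.08). SMARCA4, the ATPase of the complex, stood at 0.23 and ARID1A at 0.26, and ACTL6A was the lowest at -0.56.

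Ephrins, semaphorins and plexins, guidance cues read at cell contacts, had the highest median, 0.21, with 18 of 23 above 0. The receptor EPHA2 went from 9.38 to 10.05 (0.66) and NRP1 from 7.06 to 7.70 (0.64), while SEMA3B, a secreted ligand, stood at -0.63. The median was 0.11 with no level filter and 0.12 with a filter at the 60th percentile. Tetraspanins, which organise membrane patches, also had a median of 0.21, with TSPAN1 at 0.65 and CD9 at 0.49 but TSPAN6 and TSPAN3 at -0.56 and -0.49, and the median was 0.13 with no level filter. Of 12 listed genes of desmosomes and gap junctions 9 passed the filter, and all 9 were above 0, with their median at 0.21. DSP, which ties desmosomes to keratin, went from 10.30 to 10.99 (0.69), and plakoglobin JUP from 9.50 to 9.94 (0.44). The 7 genes of 14-3-3 proteins, adaptors for phosphorylated partners, were all above 0 too, with a median of 0.12 and a mean of 0.21, SFN highest at 0.61 and YWHAE at 0.12.

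Annexins and S100 proteins, which bind calcium at membranes, had a median of 0.14 and the widest range of the lists with a median past 0.1, though the median was 0.08 with no level filter. S100P went from 9.22 to 7.95 (-1.27), whereas S100A11 went from 9.20 to 10.12 (0.92), S100A16 from 9.17 to 9.82 (0.65) and S100A10 from 10.83 to 11.36 (0.54). Tubulins and microtubule proteins had a median of 0.12, or 0.08 with a filter at the 60th percentile, with MAP1B at 0.53, MAP1S at 0.45 and MAP4 at 0.44. In the list of calcium handling the receptor ITPR3 stood at 0.72 and the entry channel genes ORAI2 and ORAI1 at 0.56 and 0.42.

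Among signalling lists, PI3K and AKT genes had their median at 0.16, with 12 of 15 above 0 and a mean of 0.08. At 1.5-fold 0 of the 15 were past, beside 1.91% higher and 4.23% lower among all genes, so this count says little. The catalytic subunit PIK3CB stood at 0.33 and the regulatory subunit PIK3R3 at -0.46. ERBB, MET and FGF signalling had a median of 0.12, with EGFR at 0.39 and the feedback inhibitors SPRY4 and SPRED2 at 0.44 and 0.39. The mTORC1 and AMPK list had a median of 0.07, with the AMPK subunits PRKAA2 and PRKAB1 at 0.54 and 0.53. Genes that insulin restrains through FOXO factors had a median of 0.06, with 9 of 16 above 0, but a median of 0.01 with no level filter and 0.37 with a filter at the 60th percentile. IGFBP1 was the 1 member past 2-fold, where 0.253% of all genes were 2-fold higher. TXNIP, which limits glucose uptake, went from 9.31 to 10.05 (0.74), and TRIB1 stood at 0.58. Glucose and monocarboxylate transporters had a median of 0.18, with 10 of 14 above 0. Beside SLC2A3, the widely expressed transporter SLC2A1 went from 12.42 to 12.88 (0.46), and the median was 0.09 with no level filter.

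The remaining lists had medians between -0.06 and 0.06. Among translation initiation factors (median 0.04, mean -0.04 over 31 genes) the lowest were EIF3M and EIF3E of the scaffold complex eIF3 at -0.72 and -0.42, EIF2S2 of the complex that brings the initiator transfer RNA at -0.54 and EIF1AX at -0.51. Transfer RNA modification was below 0 in 21 of 33 genes (median -0.03), with PUS3 at -0.53 and ADAT2 at -0.49. In the list of Polycomb and histone methyltransferases (median 0.04) SUZ12, a core subunit of the complex that methylates histone H3, stood at -0.58, DPY30 at -0.57 and KMT2D at 0.39.

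Protein entry into the endoplasmic reticulum split evenly, 10 above 0 and 10 below. Its lowest members, SRP9 (-0.66), SRP19 (-0.57) and SRP72 (-0.35), belong to the signal recognition particle, which guides new secretory chains to the membrane. SRP14, SRP54 and SRP68 of the same particle stood at -0.29, -0.20 and 0.15. N-glycosylation (median 0.05) ran from ALG13 at -0.47 to DPAGT1, which starts the sugar chain, at 0.34. In the synthesis of glycosylphosphatidylinositol anchors (median 0.04 over 26 genes) PIGZ was the 1 member past 2-fold, beside 0.253% higher among all genes. DPM1, which supplies mannose, went from 11.84 to 10.90 (-0.94) and PIGK, of the enzyme that attaches the anchor, from 8.94 to 8.16 (-0.78). Vesicle coats were above 0 in 18 of 27 genes (median 0.05), with SEC16A at 0.56 and COPB1 at -0.44. For the vacuolar proton pump, which acidifies lysosomes, the median was -0.04, with ATP6V1C1 at -0.56 and ATP6V0C at 0.42.

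Among lists of metabolism and organelles, sphingolipid genes had their median at 0.01, with SGMS2, which makes sphingomyelin, at 0.57 and the ceramidase ASAH1 at -0.42. The phospholipid list also lay at 0.01, with LPCAT1 at 0.44 and ETNK2 at -0.39, as did the 7 genes of the pentose phosphate pathway, with RPE at -0.49. In haem synthesis (median 0.03 over 9 genes) TMEM14C stood at -0.60, ABCB10 at -0.52 and ALAS1, the first enzyme of the pathway, at 0.30. The 11 peroxins, which build peroxisomes, had a median of -0.06 that became 0.05 with a filter at the 60th percentile, with PEX3 at -0.55. In the list of mitochondrial shape and mitophagy (median 0.02) APOO stood at -0.65 and FUNDC1 at -0.63. Sodium, potassium and chloride transport lay at 0.06, or 0.02 with no level filter, with SCNN1A, a subunit of the epithelial sodium channel, at -0.56. The 7 septins lay at 0.03, with SEPTIN9 at 0.42 and SEPTIN11 at -0.26.

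**Figure D3:**
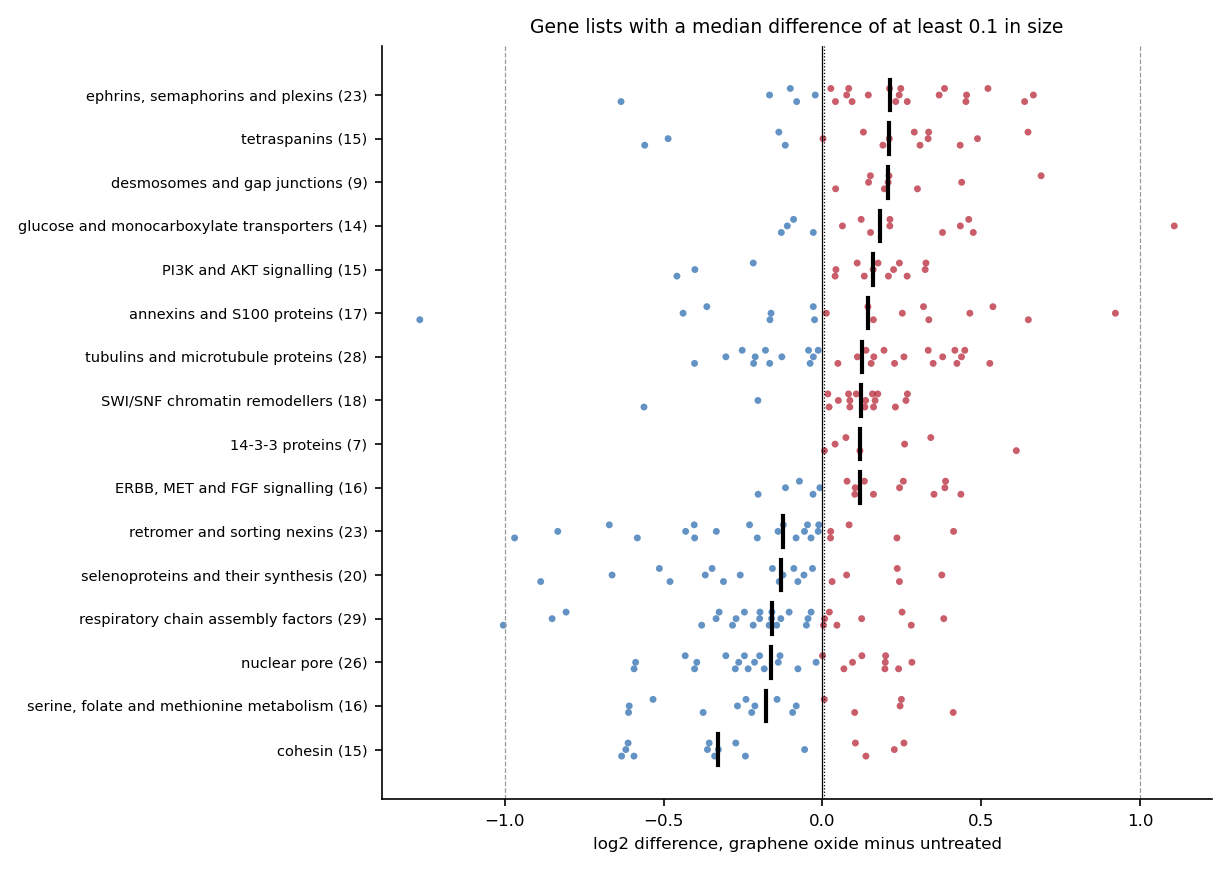
Log2 difference (graphene oxide minus untreated) of each member past the filter, 1 dot per gene, for the 16 lists whose median was 0.1 or more in size, with the number of members in brackets. Black bars are list medians, the dotted line is the median of all genes (0.01) and the dashed lines are 2-fold. Few dots reach 2-fold, and the list medians run from -0.33 for cohesin to 0.21 for ephrins, semaphorins and plexins.

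Grouping protein-coding genes by the letters of their symbols gave 169 families of 8 or more members, 87 with a median above 0 and 81 below. Such families share a name and need not share a function. Behind the metallothioneins, the lowest medians were those of COMMD (-0.34 over 9 genes), whose proteins serve endosomal recycling, with COMMD6 at -0.90 and COMMD9 at 0.37. TRMT, transfer RNA methyltransferases, followed at -0.28 over 13 genes, SMIM at -0.27, CFAP at -0.26 and ANAPC, subunits of the complex that ends mitosis, at -0.25 with 8 of 10 below 0. IFT genes of ciliary transport were at -0.22 and MRPL genes of the large mitochondrial ribosomal subunit at -0.21, the latter with 37 of 48 below 0, from MRPL1 at -1.25 to MRPL28 at 0.22. The highest medians were those of SERPINA (0.25 over 8 genes), serpin genes, which ran from -0.54 for SERPINA6 to 0.95 for SERPINA11. KLF transcription factors stood at 0.21, with KLF6 at 0.52 and KLF15 at -0.43, MAP at 0.20 with 22 of 28 above 0, MYO, the myosins, at 0.19 with 11 of 13 above 0, and KDM histone demethylases at 0.18.

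Genes with the most GC-rich promoters were more often above 0 than the rest. RefSeq promoters were matched for 8884 of the 11050 genes, and the 250 bases before each start were used. Genes of chromosome 8 had no promoter entry, so promoter GC and motif shares leave them out. In the quintile of genes with the lowest GC content (26.4% to 56.4%) the median difference was -0.02 and 46.9% of genes were above 0. The second quintile lay lower still, at -0.03 and 44.5%, the third at -0.01 and 47.7% and the fourth at 0.01 and 53.1%. In the quintile with the highest (74.4% to 96.4%) the median was 0.07 and 63.1% were above 0. The 1.5-fold lower genes numbered 116, 107, 78, 62 and 20 from the lowest to the highest quintile, each of which held between 1681 and 1834 genes. The 1.5-fold higher genes showed no such order, with 41, 30, 23, 27 and 44. At 2-fold, 29 genes were lower in the quintile of lowest GC and 4 in that of highest. Spearman's rho between promoter GC and the difference was 0.136 across genes, a weak relation between points that share 2 arrays, and between 0.076 and 0.166 within quintiles of expression level. The gap between the medians of the highest and lowest quintiles was 0.09, and 0.05 with no level filter. Median promoter GC was 67.0% for the 2-fold higher genes, 61.2% for the lower and 65.2% for all.

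A set of 20 short motifs was searched on both strands of the same 250 bases. With 24 higher genes a few genes move a share by several points, and the widest gaps of 20 searches can stand out for that alone. TATAAA was found in 7 of the 24 promoters of 2-fold higher genes (29.2%) and 11 of the 83 of lower genes (13.3%), against 5.62% of all. The 7 were BPIFB2, CEMIP, DEPP1, FSTL3, ICAM1, KRTAP3-1 and MAB21L3, and the 11 included ID1, GSTA1, GSTA2, MT1X, S100P and SULT1E1. CCAAT was found in 3 of the higher promoters (12.5%) and 34 of the lower (41.0%), against 35.1% of all. CCGGAAG, read by ETS factors, was in 1 of the higher (4.17%), 16 of the lower (19.3%) and 16.4% of all. GGAATG, read by TEAD factors, was in 5 of the higher (20.8%), 9 of the lower (10.8%) and 9.08% of all, and GGCGCC in 8 (33.3%), 12 (14.46%) and 26.3%. The GC box GGGCGG was found in 75%, 59.0% and 68.1%. Both GGCGCC and GGGCGG consist of G and C alone, and how their matches relate to promoter GC was not tested.

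**Figure D4:**
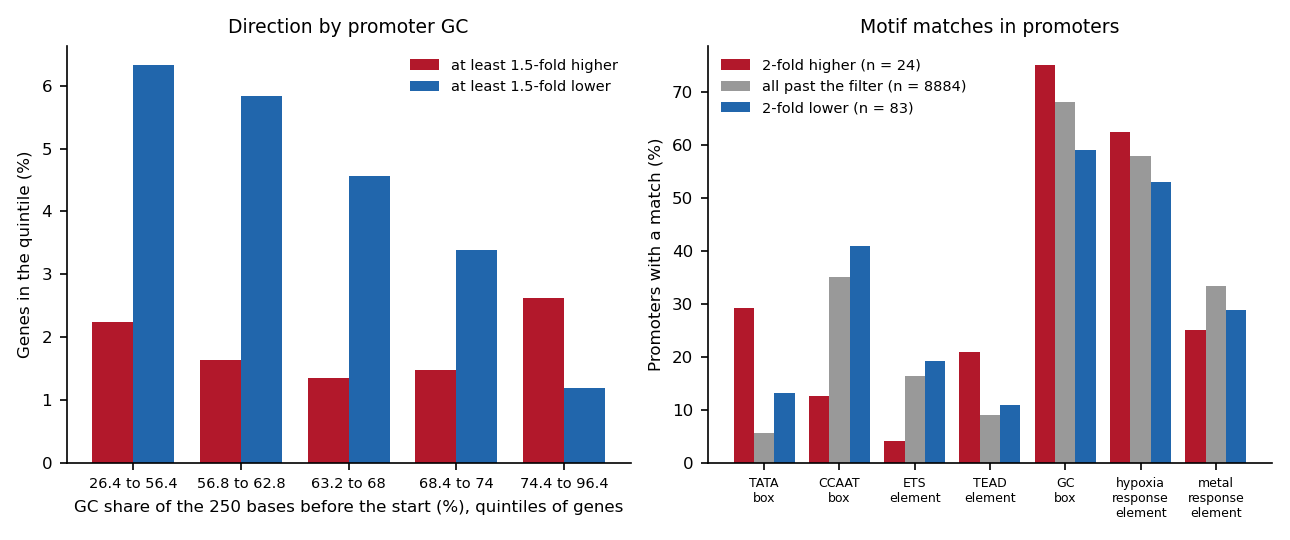
Left, percent of genes at least 1.5-fold higher (red) or lower (blue) with graphene oxide in each quintile of genes by promoter GC content. Right, percent of promoters with at least 1 match, for some of the 20 motifs searched. Groups are 2-fold higher genes (24), all genes past the filter (8884) and 2-fold lower genes (83). Lower genes thin out as GC rises, from 116 genes in the first quintile to 20 in the last, and TATAAA is most frequent among higher genes (29.2%).

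Chromosomes differed in the share of genes above 0. It was lowest on chromosome 13 (36.9% of 179 genes), chromosome 4 (39.8% of 367) and chromosome 5 (41.7% of 475). It was highest on chromosome 19 (60.4% of 847 genes), chromosome 22 (59.9% of 289) and chromosome 17 (58.6% of 706). Chromosome 17 carried 4 genes 2-fold higher and 0 lower, and chromosomes 4 and 8 each carried 0 higher and 7 lower, small counts beside the 0.253% higher and 0.914% lower among all genes. The median differences spanned -0.08 to 0.05. Across 22 chromosomes the median difference and the median promoter GC had a Spearman's rho of 0.152, given as a description. Chromosome 8 was left out, as its genes had no promoter entry.

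**Figure D5:**
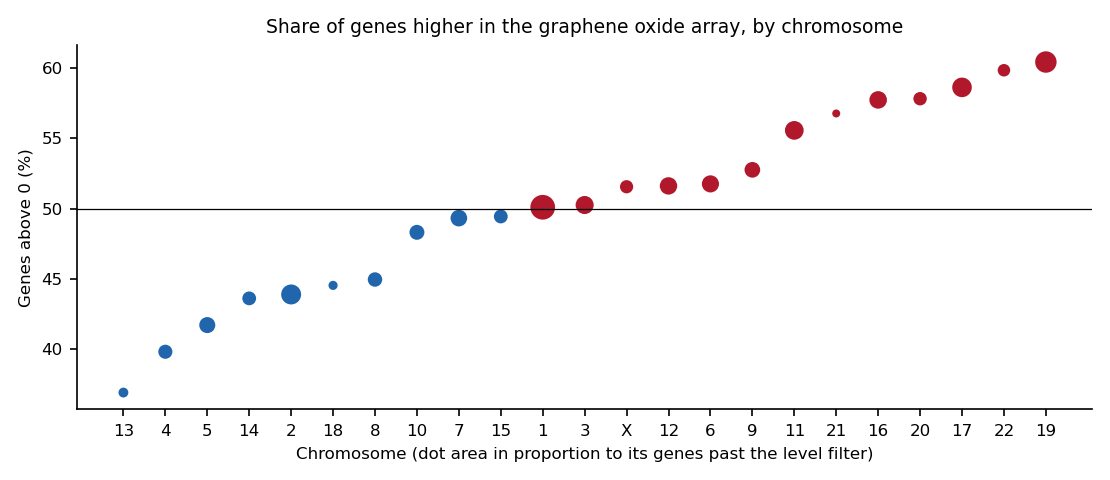
Percent of genes past the filter with a difference above 0 on each chromosome, ordered from lowest to highest, with dot area in proportion to the number of genes, red above and blue below 50%. The range is from 36.9% on chromosome 13 to 60.4% on chromosome 19.

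Expression level itself showed little relation to direction. From the lowest to the highest quintile of mean level the medians lay between 0.00 and 0.02 in size, and Spearman's rho across genes was -0.01. The spread was narrower among weak genes, with a robust SD of 0.189 in the lowest quintile and 0.286 in the fourth, and genes 2-fold lower numbered 6, 14, 28, 20 and 33 against 4, 5, 8, 5 and 6 higher. Quintiles of gene length along the genome held 12, 27, 31, 20 and 11 genes 2-fold lower from shortest to longest. Small nucleolar RNAs, guides for ribosomal RNA modification, stood above 0 in 70 of 106 cases with a median of 0.10, and 7 of 26 microRNA genes were above 0 with a median of -0.16. In both classes 0 genes passed 2-fold, against 0.253% higher and 0.914% lower among all genes, so with this few genes the count says little.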

How the data were processed

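Values were taken from the authors' deposited table of log2 expression values for 33297 probe sets. Per the submitters' processing notes RMA and MAS5 were used, with no role or version given; the scale reads as log2 from its range (2.24 to 14.47), values are not centred per gene, and whether they were scaled further is unknown. Column medians were 6.65 (untreated) and 6.63 (GO). The authors' genome build is not given in the sources used here.

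Probe sets were named through GEO's platform annotation, which can be old: 19460 had 1 symbol, 1754 several and 12083 none listed, and only the first kind entered gene comparisons. Entrez IDs of 18389 genes matched a RefSeq table (GRCh38.p14), which gave biotype, chromosome, gene span and, for 14237 genes, promoter sequence.

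GO minus untreated was computed for each gene, and no test was run. Members, lists, motifs and naming rules were chosen with earlier results of these data known. The assignment of the 129 genes to roles and the choice to show the ICAM1 and GSTA1 promoters were made after their values were seen. So was the naming of SMC1A, RAD21, SRP14, SRP54 and SRP68. Genes were named from those past 2-fold, the 4 largest differences of each list, the 3 genes on each side of the threshold, the extremes of the 8 highest and 8 lowest symbol families, and markers. Alternatives were quantile normalization, median centring, loess (span 0.3), other filters, other probe set rules and other sizes. The counting steps were tested on simulated data. Quintiles of protein length had been planned and were replaced by gene span, as no protein table was used. A further gene list and 1 gene past 2-fold are not reported here. Computation used pandas 2.3.3, numpy 2.4.6, statsmodels 0.14.6 and scipy 1.17.1 under Python 3.11.15, with matplotlib 3.10.9 for plots. With 1 array a group, the number of arrays limits the precision.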

Additional observations from a re-analysis of the deposited data

Results flagged for a closer look

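Probe sets outside the gene comparison also held differences past 2-fold. Of 1014 probe sets with several gene symbols and a level past the filter, 0 were at least 2-fold higher with GO and 4 at least 2-fold lower. Of 3911 such probe sets with no gene symbol listed, 11 lay at or past 2-fold on the higher side and 35 on the lower side. Those are 0.394% and 1.18% past 2-fold in either direction, beside 0.253% higher and 0.914% lower among the 11050 genes, so near or under the share of genes. Over all 12083 probe sets with no symbol listed, weak ones included, 143 were at least 2-fold higher and 142 lower. That is 2.36% in either direction, over the share of genes, and the lower side no longer led. The genes had passed the level filter and these probe sets had not, so the shares are not of like sets. No control for these counts exists, since the untreated array is 1 side of each difference.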

How the results depend on the processing

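The size chosen set the counts: 211 genes were higher and 467 lower at 1.5-fold, 1 and 8 at 3-fold, and 0 and 5 at 4-fold, against 28 and 101 at 2-fold. Under the other settings the 2-fold counts ran from 22 to 34 higher and from 84 to 111 lower, and 72.8% to 79.2% of the genes past 2-fold were lower. All 28 higher genes kept their call in each of these settings but the 60th percentile filter, which left 22 of them. Median centring called 91 genes lower and quantile normalization 89, each of them among the 101, and those lost lay near the threshold. With each gene's probe sets averaged, AKR1C1 stood at -0.54, YAE1 at -0.53, RPL34 at -0.74 and SNRPG at -0.84. Of 316 named genes, 10 moved by more than 0.0804 in that setting and 0 under the scalings. That size is the robust SD of the gap between 2 probe sets of a gene, divided by the square root of 2. It came from 365 pairs past the filter, and the pairs themselves differ by more. Averaging can move only a gene with more than 1 probe set, which held for 769 of the 18417 genes. How many of the 316 had more than 1 is not given here, so the count of 10 does not show that the others are stable. The scalings shifted the median of all genes by at most 0.02. The share of genes above 0 was 51.1%, 55.1% after quantile normalization, 55.6% after centring and 48.7% with no level filter, so its side of 50% depends on the filter. The median of the FOXO list went from 0.06 to 0.37 with the 60th percentile filter, which leaves fewer genes. The mean was -0.21 for retromer and sorting nexins (median -0.12) and -0.22 for cullin ligases (median -0.10). No gene past 2-fold changed sign under the scalings or the other probe set rules. The signs of smaller differences were not compared. Those of MT3 (-0.02) and ALB (-0.01) were smaller in size than the shift by median centring. The median of peroxins went from -0.06 to 0.05 with the 60th percentile filter. No paired analysis was possible because each group has 1 array. One array a side cannot separate an effect of GO from variation between dishes or arrays.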
